A study of Mus musculus with 22 samples.

Results

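RNA from sorted muscle stem cells was read for 8 genes typical of neutrophils: S100a8, S100a9, Cxcr2, Csf3r, Retnlg, Slpi, Trem1 and Lcn2. They are a fixed set of named genes, and all 8 were found by symbol among the 43430 genes of the files. The cells came from hindlimb muscle of Pax7-zsgreen mice, in which cells that express the muscle stem cell factor Pax7 carry a green fluorescent protein. There were 6 groups: uninjured muscle at ZT4 and at ZT16 with 3 libraries each, and muscle 1 day and 3 days after cardiotoxin at ZT4 and at ZT16 with 4 libraries each. ZT is zeitgeber time, counted in hours from lights on. In the injured groups it is the hour of injury, per the labels' protocols. Cardiotoxin is a snake toxin that destroys muscle fibers. All 22 libraries share the Pax7-zsgreen genotype, perfusion with saline and a mild fixative, and the sort of ZsGreen-positive cells. The reporter marks any cell that makes ZsGreen, and neither the gates of the sort nor the age of the mice nor the hour of collection is given in the labels. Nothing in them ties a replicate to a mouse of its own, so p-values measure only the spread between these libraries, which may be technical.

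Neutrophils are short-lived white blood cells that are made in bone marrow and are among the first cells to enter injured muscle, where they kill microbes and clear debris before macrophages take over. They leave the blood along gradients of CXC chemokines and answer to granulocyte colony-stimulating factor. Their granule proteins are made in a fixed order during maturation, so that genes of the earliest granules are silent in mature cells and receptors for chemokines appear late. A neutrophil holds little RNA for its size. Several of the genes are also made by monocytes or by other activated cells, among them S100a8, S100a9, Csf3r, Trem1, Slpi and Lcn2.

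Defining genes of the labelled cell type were read in every group. At ZT4 the mean level of Pax7 was 330 CPM in uninjured muscle, 54.4 at day 1 and 21.6 at day 3, and at ZT16 it was 314, 62.0 and 23.5. Myod1, the factor of activated muscle stem cells, was at 260, 1347 and 743 CPM at ZT4. CPM is a count relative to the size of its library, scaled between libraries by the TMM method of edgeR. Library totals ran from 5965957 to 9751536 estimated counts, and 15875 to 23267 genes had an estimated count above 0. In these bulk samples fewer cells that make the 8 genes and less of their RNA per cell cannot be told apart.

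The start regions of 4 of the genes are shown because they include the pair with the highest levels and the pair with the largest log2 differences between the times at day 1. Each is the 250 bases before the RefSeq start, on the gene's own strand, from the RefSeq table of GRCm38.p6. Capitals mark matches on either strand, so that GAGGAA on the other strand reads TTCCTC. The motifs searched were GAGGAA (the core of sites of the myeloid factor PU.1), TTGCNNAA (C/EBP factors, which drive granulocyte genes), TTCNNNGAA (STAT factors, which act below the receptor Csf3r) and CACGTG (the E-box of clock factors).
S100a8, chr3:90668821-90669070, plus strand: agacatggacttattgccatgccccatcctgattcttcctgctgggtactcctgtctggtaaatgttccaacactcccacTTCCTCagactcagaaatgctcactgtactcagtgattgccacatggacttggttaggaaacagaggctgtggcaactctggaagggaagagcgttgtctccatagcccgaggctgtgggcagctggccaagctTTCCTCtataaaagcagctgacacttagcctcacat
S100a9, chr3:90695722-90695971, minus strand: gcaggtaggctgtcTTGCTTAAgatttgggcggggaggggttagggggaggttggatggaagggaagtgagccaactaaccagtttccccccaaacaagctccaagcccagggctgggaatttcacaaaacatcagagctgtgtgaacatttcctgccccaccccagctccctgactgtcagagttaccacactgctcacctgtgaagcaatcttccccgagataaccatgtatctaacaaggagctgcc
Trem1, chr17:48232489-48232738, plus strand: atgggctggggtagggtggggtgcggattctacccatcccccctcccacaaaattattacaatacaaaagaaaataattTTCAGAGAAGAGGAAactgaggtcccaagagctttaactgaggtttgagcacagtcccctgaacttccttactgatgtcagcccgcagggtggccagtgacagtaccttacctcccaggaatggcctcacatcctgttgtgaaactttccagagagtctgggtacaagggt
Lcn2, chr2:32387740-32387989, minus strand: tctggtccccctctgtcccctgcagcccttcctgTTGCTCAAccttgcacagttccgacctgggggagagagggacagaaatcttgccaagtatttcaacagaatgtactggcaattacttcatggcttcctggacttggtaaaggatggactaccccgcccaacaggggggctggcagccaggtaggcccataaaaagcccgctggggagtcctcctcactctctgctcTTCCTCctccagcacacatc
S100a8 has matches to GAGGAA that begin 170 and 36 bases before the start. S100a9 has TTGCNNAA at 236 bases. Trem1 has TTCNNNGAA at 171 and GAGGAA at 162 bases, which adjoin and do not overlap. Lcn2 has TTGCNNAA at 216 and GAGGAA at 20 bases. Over all 8 genes, GAGGAA was found in 5, TTGCNNAA in 4, TTCNNNGAA in 1 and CACGTG in 1, the last in Slpi at 146 bases. Among 32536 promoter windows of the same length, 23.4% hold GAGGAA, 9.57% TTGCNNAA, 7.04% TTCNNNGAA and 6.04% CACGTG. A match is a run of letters and not a measured binding site. The RefSeq starts are not those of the gene spans given below. The windows of S100a8, Cxcr2, Csf3r and Slpi lie partly or wholly inside those spans. So do the S100a8 match at 36 bases and the CACGTG of Slpi.

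The 8 genes were nearly absent from uninjured libraries, were high 1 day after injury and were low again after 3 days. Counts of the 8 genes together came to 723 to 2125 per library at day 1 ZT4 and 275 to 583 at day 1 ZT16, against 13 to 74 at day 3 and 0 to 28 in uninjured muscle. All 8 genes had counts in each of the 8 day 1 libraries. Against uninjured muscle, averaged over both times, 7 genes were tested and all 7 rose (edgeR, adjusted p from 1.97e-11 for Csf3r to 2.45e-05 for Lcn2), where 34.6% of all genes tested rose. The eighth, Retnlg, had too few counts for the test. Between day 1 and day 3 all 7 fell (edgeR, adjusted p from 1.60e-10 for S100a9 to 6.36e-05 for Lcn2), where 28.7% of all genes fell. The 7 genes passed the filter on low counts through their day 1 libraries, where they are high, so neither count is support of its own and nothing is read from the share of all genes beside it.

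**Figure D1:**
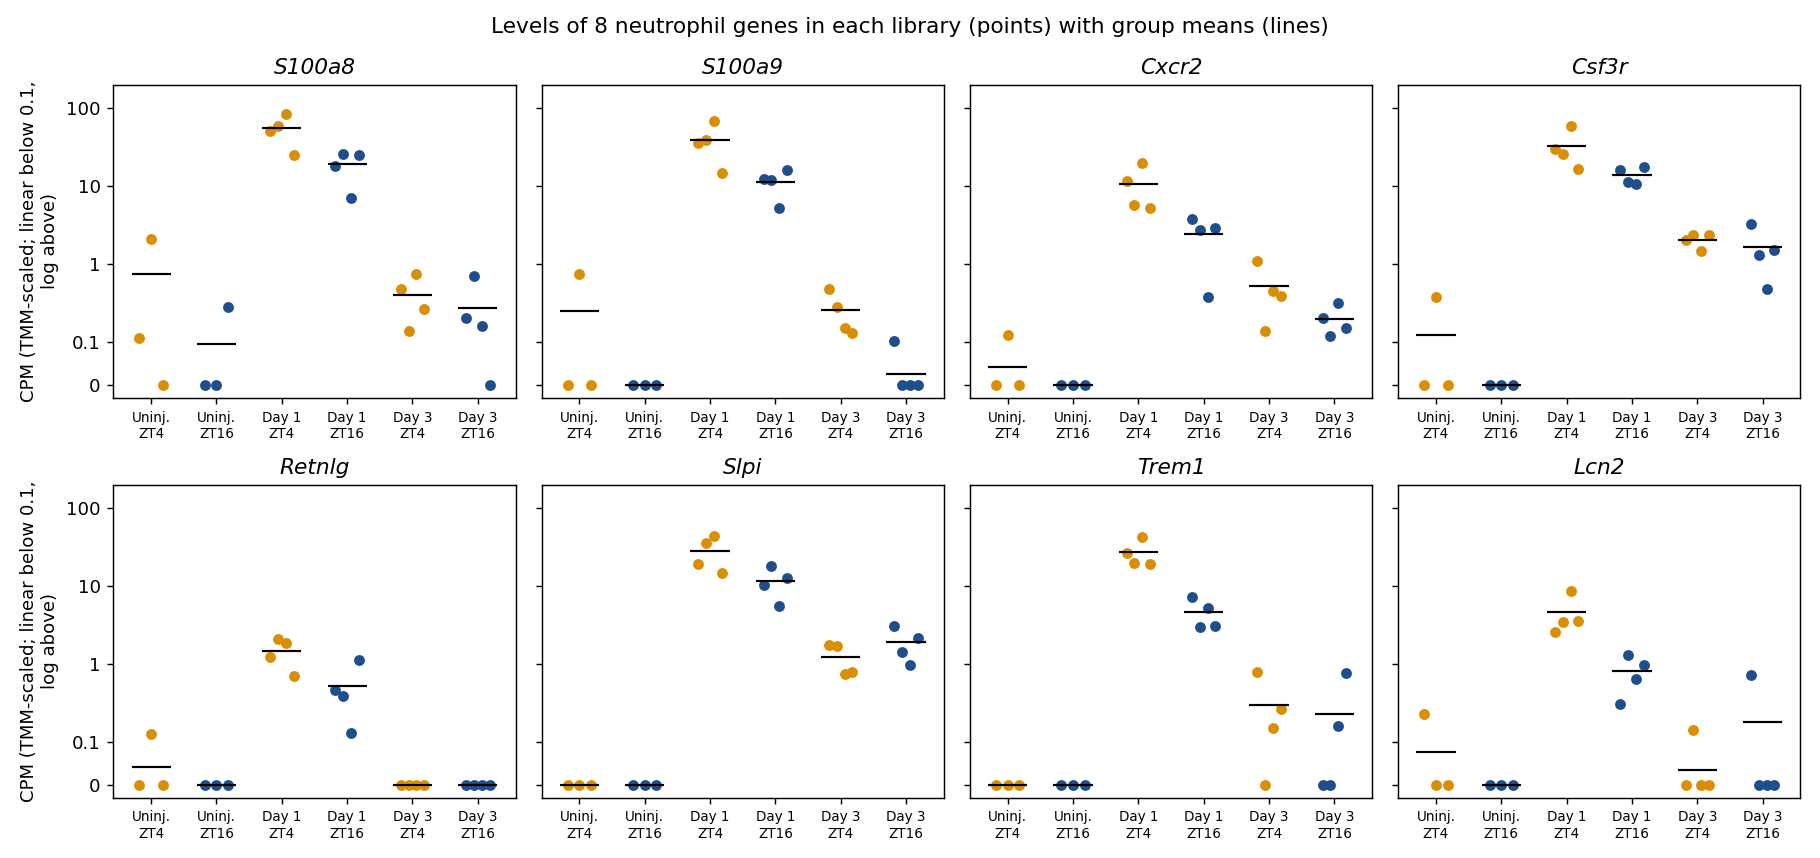
Level of each gene in each of the 22 libraries, in CPM on an axis that is linear below 0.1 and logarithmic above. Points are libraries (ZT4 orange, ZT16 blue), and lines are group means. All 8 genes are highest in the day 1 groups, and in the uninjured ZT16 libraries the single gene with counts is S100a8, in replicate 3.

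S100a8 and S100a9 encode the 2 subunits of calprotectin, a calcium- and metal-binding protein that fills the neutrophil cytosol. They lie side by side on chromosome 3 (S100a8 at 90668978 to 90670035, S100a9 at 90692632 to 90695721, GRCm38, protein-coding). At day 1 ZT4 S100a8 was at 51.0, 59.2, 85.4 and 25.4 CPM in replicates 1 to 4, and at ZT16 at 18.2, 26.3, 6.98 and 24.8. The groups overlap at 1 place, where ZT16 replicate 2 lay above ZT4 replicate 4. S100a9 was at 35.7, 39.6, 69.2 and 14.6 CPM at ZT4 and at 12.3, 11.8, 5.21 and 16.3 at ZT16. Here too ZT4 replicate 4 fell into the ZT16 range. The log2 difference of ZT16 from ZT4 was −1.53 ± 0.48 (SE) for S100a8 and −1.80 ± 0.44 for S100a9, with 4 and 4 libraries, and neither passed in edgeR (adjusted p = 0.590 and 0.416).

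Retnlg, a secreted resistin-like protein made by mature granulocytes, and Lcn2, the iron-scavenging granule protein lipocalin 2, were the lowest of the secreted products in counts. Retnlg (chromosome 16, 48872621 to 48874496) had 9, 13, 12 and 5 counts in the ZT4 libraries and 3, 3, 1 and 8 in the ZT16 libraries of day 1. ZT16 replicate 4 lay within the ZT4 range, and the pooled ratio of ZT4 to ZT16 was 2.80-fold (95% interval for counting error only, 1.51 to 5.47). Lcn2 (chromosome 2, 32384633 to 32388252) was at 2.59, 3.47, 8.71 and 3.58 CPM at ZT4 and at 0.303, 1.29, 0.635 and 0.969 at ZT16. The groups did not overlap, and ZT4 replicate 3 stood above the other ZT4 libraries. Its log2 difference was −2.48 ± 0.79 (edgeR, adjusted p = 0.590).

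Slpi encodes a secreted inhibitor of neutrophil serine proteases such as elastase (chromosome 2, 164354070 to 164389095). It was at 19.4, 35.5, 43.5 and 14.6 CPM at day 1 ZT4 and at 10.2, 18.3, 5.59 and 12.5 at ZT16. The ranges overlap, since ZT16 replicate 2 lay above ZT4 replicate 4. The log2 difference was −1.28 ± 0.39 (edgeR, adjusted p = 0.577).

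Of the receptor genes, Cxcr2 binds the CXC chemokines that draw neutrophils out of blood, Csf3r binds granulocyte colony-stimulating factor, and Trem1 amplifies inflammatory signals through the adaptor Tyrobp. Cxcr2 (chromosome 1, 74153989 to 74161246) was at 11.6, 5.68, 19.6 and 5.24 CPM at day 1 ZT4 and at 3.79, 2.70, 0.381 and 2.91 at ZT16. Every ZT16 library lay below every ZT4 library. Trem1 (chromosome 17, 48232768 to 48246924) was at 26.7, 19.9, 42.1 and 19.0 CPM at ZT4 and at 7.13, 2.96, 5.21 and 3.05 at ZT16. Here too no ZT16 library reached the ZT4 range. Csf3r (chromosome 4, 126024550 to 126044440) was at 30.1, 25.7, 60.0 and 16.5 CPM at ZT4 and at 16.2, 11.3, 10.8 and 17.5 at ZT16, and here ZT16 replicate 4 lay above ZT4 replicate 4. The log2 differences were −2.11 ± 0.58 for Cxcr2, −2.56 ± 0.50 for Trem1 and −1.25 ± 0.39 for Csf3r (edgeR, adjusted p = 0.416, 0.228 and 0.590).

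The call at day 1 depended on the test. In edgeR 0 of the 7 tested genes passed at an adjusted p under 0.05, as did 0% of all genes. At an unadjusted p under 0.05 all 7 were lower at ZT16, where 2.72% of all genes were. All 7 values were below 0, as were 48.4% of all genes, and their median was −1.80 against 0.007 over all genes tested. Ranges that did not overlap, with ZT16 lower, were seen for 3 of the 8 genes (Cxcr2, Trem1 and Lcn2) and for 2.25% of all genes tested. Lcn2 passed the filter on low counts only through its ZT4 libraries, at 2.59 to 8.71 CPM against 0.303 to 1.29 at ZT16. A lower value at ZT16 was therefore partly set by the filter, and Lcn2 lends these counts no support. The 8 genes were also chosen with earlier results of these data known. In DESeq2 Trem1 alone passed (adjusted p = 0.000278), among 0.179% of all genes. In limma voom S100a8, Trem1 and Lcn2 passed (adjusted p = 0.0422, 0.00490 and 0.0455), among 0.312% of all genes. With no filter on low counts edgeR called 6 of the genes, all 7 named above but Lcn2, among 0.924% of 29234 genes. With the 8 day 1 libraries alone it called Trem1 (adjusted p = 0.0278), among 0.0153%. Without ZT4 replicate 3, the library highest in 7 of the 8 genes, the log2 differences ran from −2.26 for Trem1 to −0.79 for Csf3r, whose value shrank by more than 1.5 times. Csf3r then had an unadjusted p of 0.0611 in edgeR, so not all 7 were under 0.05 without that library.

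**Figure D2:**
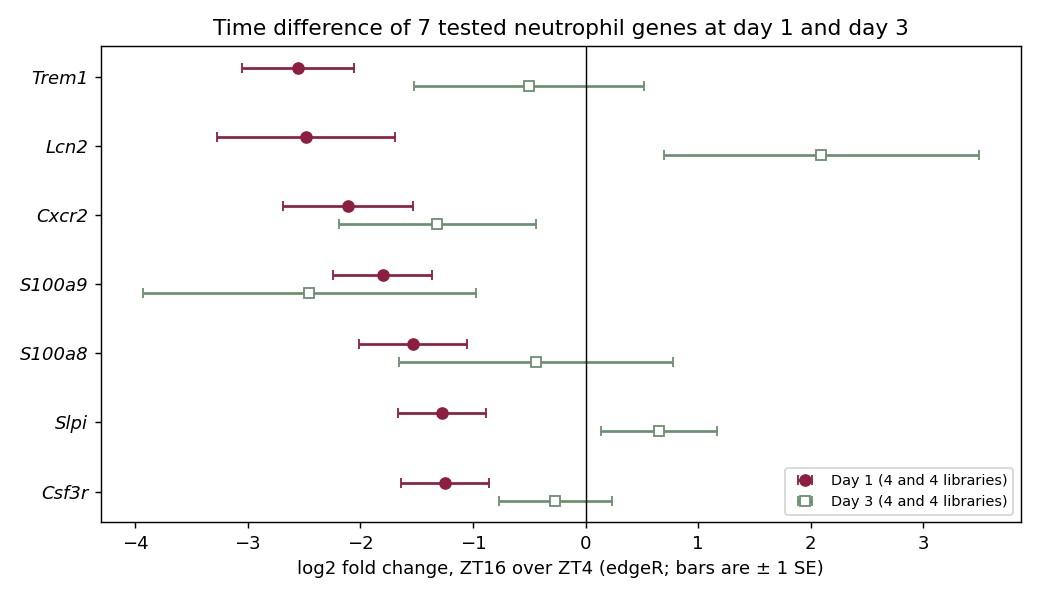
The log2 fold change of ZT16 over ZT4 for the 7 tested genes at day 1 (filled circles) and at day 3 (open squares), with bars of 1 SE from edgeR. At day 1 all 7 lie between −2.56 and −1.25. At day 3 the values rest on few counts and range from −2.45 (S100a9) to 2.09 (Lcn2), and these extremes were −3.95 without ZT16 replicate 1 and 0.24 in limma voom.

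The 8 genes were not equally abundant. Per transcript length, in the deposited TPM, an abundance corrected for transcript length, S100a8 was highest in all 8 day 1 libraries, followed by S100a9 and then Slpi. At ZT4 S100a8 was at 189 to 661 TPM, S100a9 at 63.7 to 301, Slpi at 32.7 to 96.9, Csf3r at 8.34 to 25.1, Trem1 at 8.86 to 17.9 and Lcn2 at 4.59 to 15.02. Cxcr2, at 2.40 to 10.2, and Retnlg, at 2.25 to 6.49, followed. The ranges of Csf3r, Trem1 and Lcn2 overlap at ZT4, and those of Lcn2, Cxcr2 and Retnlg do too. At ZT16 the order of the first 3 was the same, and Csf3r (4.94 to 9.30 TPM) lay above Trem1 (1.31 to 3.55) in each library.

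S100a8 made up 58.3% to 60.2% of the summed TPM of the 8 genes in the ZT4 libraries and 54.6% to 64.1% in the ZT16 libraries. S100a9 made up 20.3% to 26.6% and 17.9% to 24.0%. The sum itself was 314 to 1133 TPM at ZT4 and 97.9 to 290 at ZT16, and the ratio of S100a8 to S100a9 stayed between 2.19 and 3.59 in all 8 libraries. Trem1 varied more: its CPM was 33.6% to 75.0% of that of S100a8 at ZT4 and 11.3% to 74.6% at ZT16, lowest in ZT16 replicates 2 and 4. The ranges of this ratio overlap between the times. The TPM shares and the ratio of S100a8 to S100a9 depend on the measure. In CPM S100a8 averaged 55.2 of 200 at ZT4 and 19.1 of 64.4 at ZT16, and S100a9 averaged 39.8 and 11.4. The transcripts are of like length, 486 bases for S100a8 and 512 and 519 for S100a9. Why S100a8 stands further above S100a9 in TPM than in CPM was not tested.

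**Figure D3:**
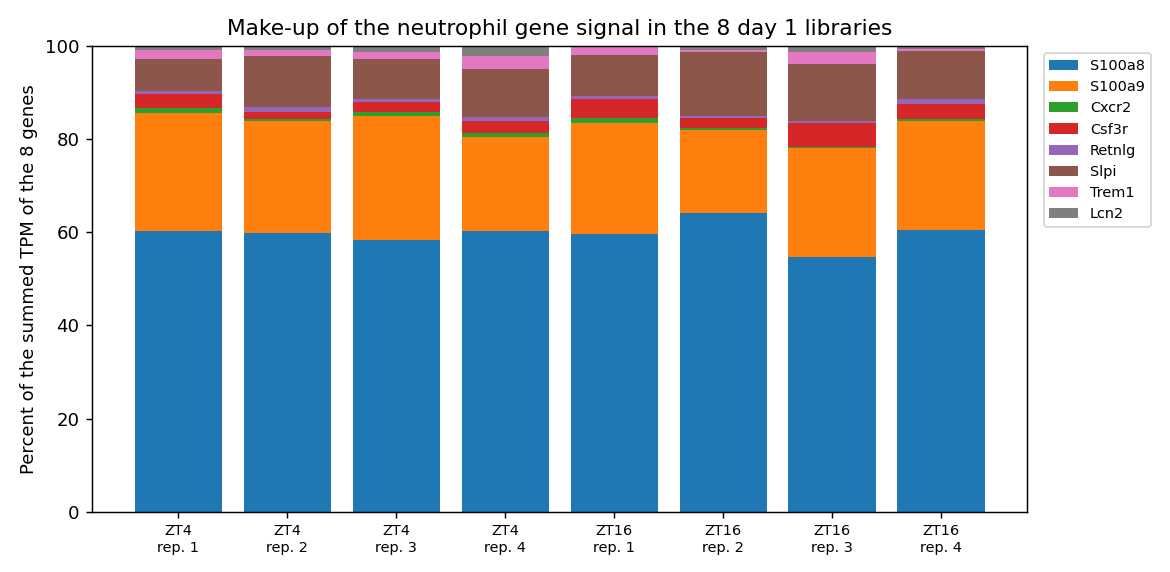
Share of each gene in the summed TPM of the 8 genes in each day 1 library, as stacked bars in percent. S100a8 takes 54.6% to 64.1% and S100a9 17.9% to 26.6% of each bar, at ZT4 and at ZT16 alike.

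At the level of transcripts, 94.8% of Trem1 counts over all libraries were assigned to its protein-coding form of 4 exons and 94.2% of Lcn2 counts to its form of 6 exons. A single form took 89.3% of Slpi counts and 81.9% of S100a9 counts. Csf3r counts were split between a form of 15 exons, 73.6%, and a form of 17 exons, 22.1%. For Cxcr2 a form of 2 exons took 58.1% and a form of 3 exons 42.0%. These are estimates from RSEM, which divides reads that fit several transcripts, so the splits are less certain than the gene sums. Exons of other annotated genes share 1 base with Slpi (Mir7678) and none with the other 7 genes.

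In uninjured muscle Slpi and Trem1 had no counts in any of the 6 libraries. Day 1 was at least 284-fold higher for Slpi and at least 224-fold for Trem1, against a floor of 3 counts over the 6 libraries. S100a8 had 20 counts and S100a9 6, of which 17 and 6 were in ZT4 replicate 2. That library held 28 of the 33 counts of all 8 genes in uninjured muscle. The pooled ratio of day 1 to uninjured was 79.4-fold for S100a8 (95% interval for counting error only, 51.3 to 130) and 432-fold (148 to 2098) without that library. For S100a9 it was 181-fold (83.0 to 494), and without that library, which left no counts, at least 296-fold. Csf3r had 3 counts, Lcn2 2, Cxcr2 1 and Retnlg 1, and their pooled ratios were 336-fold (115 to 1632), 57.2-fold (15.6 to 477), 276-fold (49.3 to 10940) and 42.0-fold (7.23 to 1690). Without ZT4 replicate 2 Csf3r, Cxcr2 and Retnlg had no counts, and day 1 was at least 275-fold, 75.2-fold and 11.4-fold higher. Counts in uninjured muscle were too few to compare the times. None of the 7 tested genes passed between ZT16 and ZT4 there (17.7% of all genes did), and without the filter on low counts S100a8 was called (adjusted p = 0.00772), on 18 against 2 counts.

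By day 3 the ratio to day 1 ran from 11.8-fold to 181-fold between genes. Csf3r and Slpi had counts in all 8 day 3 libraries, at 0.480 to 3.29 CPM and 0.743 to 3.08 CPM. The pooled ratio of day 1 to day 3 was 11.8-fold for Csf3r (95% interval for counting error only, 9.74 to 14.4) and 11.9-fold for Slpi (9.62 to 14.8). It was 106-fold for S100a8 (68.4 to 174), 181-fold for S100a9 (91.7 to 421) and 64.1-fold for Trem1 (38.0 to 118). These counting intervals do not overlap those of Csf3r and Slpi. Cxcr2, at 18.4-fold (11.8 to 30.6), and Lcn2, at 19.1-fold (9.43 to 45.0), lay near Csf3r and Slpi, and Lcn2 moved to 128-fold (22.5 to 5068) without ZT16 replicate 1, which held 7 of its 8 day 3 counts. Retnlg had no counts at day 3, which makes day 1 at least 18.7-fold higher against 3 counts over the 8 libraries. In edgeR the falls from day 1 to day 3 were −3.50 ± 0.33 for Csf3r and −3.54 ± 0.33 for Slpi on the log2 scale, against −6.52 ± 0.52 for S100a8 and −7.54 ± 0.53 for S100a9. The difference between genes was not tested.

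The make-up of the signal at day 3 also differed in its values: Slpi made up 17.8% to 74.2% of the summed TPM of the 8 genes, against 6.77% to 13.7% at day 1, and Csf3r 6.95% to 29.1%, against 1.56% to 5.05%. S100a8 made up 0% to 62.7%, on 0 to 6 counts per library.

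Between ZT16 and ZT4 at day 3, 0 of the 7 tested genes passed in edgeR, as did 0% of all genes, and none had an unadjusted p under 0.05, where 6.65% of all genes did. DESeq2 and limma voom also called none of the 7. Slpi was at 1.73, 1.67, 0.743 and 0.787 CPM at ZT4 and at 3.08, 1.42, 0.960 and 2.11 at ZT16, with overlap (0.65 ± 0.51, adjusted p = 0.917). Csf3r had 13, 17, 10 and 18 counts at ZT4 and 32, 11, 3 and 10 at ZT16, in CPM again with overlap (−0.27 ± 0.50, adjusted p = 0.976). S100a9 had 7 counts at ZT4 and 1 at ZT16 and was the single gene of the 8 whose ranges did not overlap, where 3.03% of all genes did not with ZT16 lower. It rests on 1 to 3 counts in each ZT4 library. ZT4 replicates 3 and 4 and ZT16 replicate 1 had 1 count each, so the raw counts tie and only the scaling to library size separates them.

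The time effects at day 1 and day 3 were then compared with each other. None of the 7 genes passed in edgeR (0% of all genes did), in DESeq2 or in limma voom. At an unadjusted p under 0.05 in edgeR, the effect at day 1 was the more negative for Slpi (−1.93 ± 0.65, adjusted p = 0.953) and Lcn2 (−4.58 ± 1.62, adjusted p = 0.953), where 4.71% of all genes passed in either direction. Of the Lcn2 counts at day 3, 7 of 8 were in ZT16 replicate 1, and without that library the Lcn2 value was −0.88, against −1.57 for Slpi. In limma voom the Lcn2 value was −2.63. Lcn2 passed the filter on low counts only through its day 1 ZT4 libraries. A more negative effect at day 1 was therefore partly set by the filter, and Lcn2 lends this comparison no support.

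Other genes of neutrophils were read from lists at day 1. Over all genes tested, 48.4% were lower at ZT16 in value and 2.72% were lower at an unadjusted p under 0.05. These shares stand beside the counts of each list below. Genes of the earliest granules were near 0: Mpo, Elane, Prtn3, Ctsg, Ms4a3 and Fcnb had a sum between 0.409 and 1.40 CPM in the day 1 ZT4 libraries and up to 1.40 in the ZT16 libraries, and 0 of 6 could be tested. Of 10 genes of later granules 7 were tested. All 7 were lower at ZT16 in value, 6 of them at an unadjusted p under 0.05, and none passed (median −1.24). They included Mmp9, a gelatinase (38.6 and 14.8 CPM, −1.38 ± 0.37), Hp, which encodes haptoglobin (26.4 and 10.2 CPM, −1.37 ± 0.34), Mmp8, a collagenase (9.08 and 3.84 CPM, −1.24 ± 0.48), and Chil3 (157 and 96.5 CPM, −0.71 ± 0.28). Pglyrp1, also among the 6, passed the filter on low counts through its ZT4 libraries, with at most 0.969 CPM at ZT16. Its lower value is therefore no support of its own. Camp and Ngp, 2 further granule genes, had no counts at day 1, and Ltf, also not tested, was at 0.756 and 0.129 CPM. Ly6g, the surface antigen by which mouse neutrophils are usually defined, had no counts in the 8 day 1 libraries either, which allows up to 0.110 CPM at ZT4 and 0.102 at ZT16 (3 counts over the group). The cells from which the reads of the 8 genes came were not tested.

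Of 14 surface genes of mature neutrophils 13 were tested, 12 were lower at ZT16 in value, 7 at an unadjusted p under 0.05, and none passed (median −0.79). Of all genes 48.4% and 2.72% were lower in these ways. The decoy receptor gene Il1r2 was at 21.7 and 7.09 CPM (−1.61 ± 0.42), the lectin receptor gene Clec4e at 125 and 57.4 (−1.13 ± 0.40), the integrin subunit gene Itgb2 at 128 and 69.6 (−0.88 ± 0.32), and Selplg, a ligand of selectins, at 30.5 and 17.7 (−0.79 ± 0.30). Of 16 cytosolic and response genes 12 were tested, 11 were lower in value, 6 at an unadjusted p under 0.05, and none passed (median −0.93). Hcar2, a receptor for niacin and ketone bodies, was at 46.3 and 15.9 CPM (−1.54 ± 0.40), and Hdc, the histamine-forming enzyme, at 34.2 and 9.87 (−1.80 ± 0.50). Acod1, which makes itaconate, was at 27.5 and 8.52 CPM (−1.69 ± 0.54) and Ifitm6 at 2.17 and 0.481 (−2.13 ± 0.71). Ifitm6 passed the filter on low counts through its ZT4 libraries, with at most 0.635 CPM at ZT16. Its lower value is therefore no support of its own. Many of these genes are made by monocytes and macrophages too, and Hdc also by mast cells.

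Among partners of the 8 genes at day 1, 12 of 15 were tested and 10 were lower at ZT16 in value, beside 48.4% of all genes. At an unadjusted p under 0.05 3 were lower, beside 2.72% of all genes, and none passed (median −0.75). The ligands of Cxcr2 were all lower in value: Ppbp at 50.8 and 24.3 CPM (−1.06 ± 0.29), Cxcl3 at 33.2 and 19.2 (−0.79 ± 0.32), Cxcl2 at 124 and 59.0 (−1.07 ± 0.60), Cxcl1 at 364 and 200 (−0.86 ± 0.63) and Cxcl5 at 21.7 and 15.7 (−0.46 ± 0.33). Csf3, the ligand of Csf3r, was at 0.978 and 0.552 CPM and was not tested. Tyrobp, the adaptor of Trem1, was at 109 and 63.9 CPM (−0.78 ± 0.29). Tlr4, a receptor for calprotectin, was at 12.8 and 10.9 CPM (−0.23 ± 0.23), and Slc22a17, a receptor for lipocalin 2, at 10.6 and 11.2 (0.08 ± 0.22). Ager, another receptor for S100 proteins, was higher in value at ZT16 (0.71 ± 0.92). Of the transcription factors, Spi1, which encodes PU.1, was at 31.9 and 19.5 CPM (−0.72 ± 0.44) and Cebpb at 115 and 66.4 (−0.79 ± 0.49). Summed CPM over the list did not overlap between the times (822 to 962 and 325 to 632), nor did it over the lists of later granules (198 to 368 and 105 to 180), surface genes (410 to 763 and 192 to 356) and cytosolic genes (364 to 849 and 154 to 340). A few genes carry these sums. At ZT4 Cxcl1 averaged 364 of 881 CPM of the partner sum and Chil3 157 of 253 of the later granule sum. Itgb2 and Clec4e averaged 128 and 125 of 502 CPM of the surface sum, and Il1b 237 of 520 of the cytosolic sum. In uninjured muscle 10 of the 12 tested partners were higher at ZT16 in value and 2 lower. In edgeR 4 passed there, where 17.7% of all genes did in either direction. They were Cebpb (3.80 ± 0.62, adjusted p = 0.000529), Cxcl1 (3.28 ± 0.81, 0.00948), Cxcl5 (3.29 ± 1.08, 0.0357) and Ppbp (4.53 ± 1.525, 0.0425). Cxcl5 and Ppbp averaged only 0.572 and 0.381 CPM at ZT16 there.

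**Figure D4:**
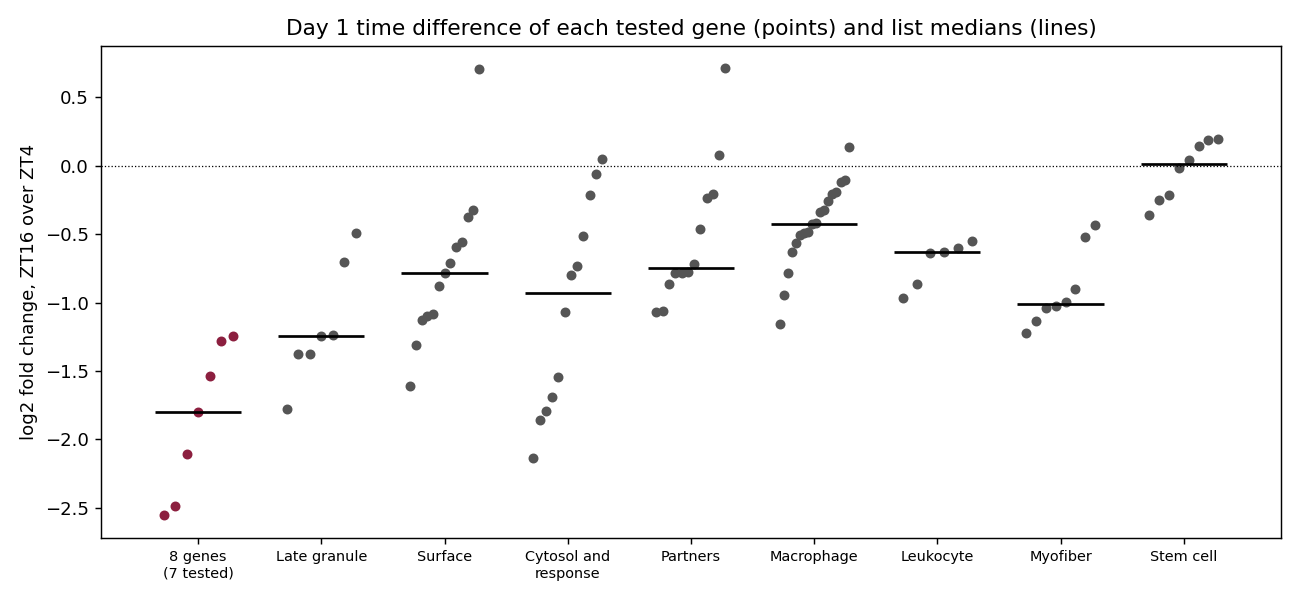
The log2 fold change of ZT16 over ZT4 at day 1 for each tested gene, as points, with the median of each list as a line. The 7 tested genes have a median of −1.80, and the muscle stem cell genes lie around 0 (median 0.012).

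Genes of other cell types were read beside the 8 genes at day 1, and no gene of these lists passed in edgeR between ZT16 and ZT4. Of all genes tested 48.4% were lower at ZT16 in value and 2.72% at an unadjusted p under 0.05. Of 18 macrophage and monocyte genes 17 were lower in value, 1 at an unadjusted p under 0.05, and none passed (median −0.42). That 1 of 18 is near the share of all genes, so nothing is read from it. Their summed level lay between 2980 and 4875 CPM at ZT4 and between 1633 and 3337 at ZT16, with overlap, and none of the 18 was at 0. Cd68, a lysosomal protein of macrophages, was at 156 and 105 CPM (−0.57 ± 0.27). In uninjured muscle 2415 CPM of the list's sum at ZT4 was Apoe, so the sum without Apoe, chosen after its values were seen, is also given. This sum lay between 2622 and 4543 CPM in the day 1 ZT4 libraries and between 1438 and 2808 in those of ZT16, and ZT16 replicate 1 lay within the ZT4 range. The 8 genes together came to 36.5 to 72.7 CPM for each 1000 CPM of those 17 genes at ZT4 and to 22.9 to 55.0 at ZT16, with overlap. At day 3 they came to 4.37 to 14.4. All 6 general leukocyte genes were lower at ZT16 in value (2 at an unadjusted p under 0.05, median −0.63, summed level 448 to 768 and 253 to 483 CPM).

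**Figure D5:**
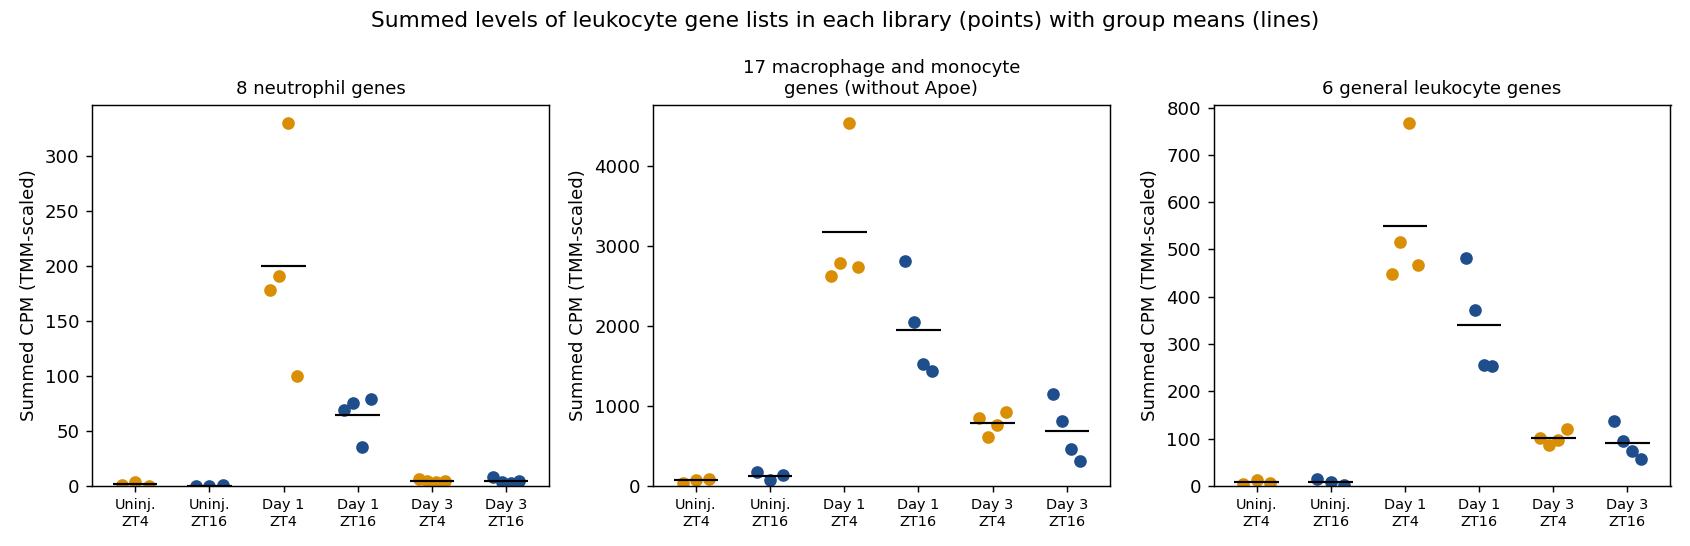
Summed CPM of the 8 neutrophil genes, of 17 macrophage and monocyte genes and of 6 general leukocyte genes, with libraries as points (ZT4 orange, ZT16 blue) and group means as lines. At day 1 the neutrophil sum lies between 99.7 and 330 CPM in the ZT4 libraries and between 34.9 and 79.1 in those of ZT16, while the other 2 sums plotted overlap between the times. The sums over the partner, mast cell, later granule, surface and cytosolic lists, not plotted, did not overlap either.

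Mast cell, basophil and eosinophil genes were lower in 6 of 7 tested at day 1, 4 at an unadjusted p under 0.05, with none passed (median −1.57). Here and for the lists below, 48.4% and 2.72% of all genes were lower in these ways. Tpsb2, a mast cell tryptase, was at 70.2 and 19.7 CPM (−1.83 ± 0.51), and the sum over the list ran from 134 to 230 CPM (ZT4) and from 39.3 to 99.7 (ZT16), with no overlap. Epx, a gene of eosinophil granules, had no counts. Muscle fiber genes were lower in 8 of 8, 5 at an unadjusted p under 0.05, with none passed (median −1.01, summed level 351 to 809 and 121 to 439 CPM). Red cell genes were lower in 4 of 4 tested, 1 at an unadjusted p under 0.05 (median −0.98, 17.4 to 37.6 and 8.19 to 17.8 CPM). Muscle stem cell genes were lower in 4 of 8 (median 0.012, 3054 to 3282 and 2863 to 3392 CPM). The part of these other cells in the values of the 8 genes was not tested.

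The genes whose profile over the 8 day 1 libraries came closest to the mean profile of the 7 tested genes were found by the root mean square difference of standardized log2 CPM. They were Lpcat2 (0.193), Srsf5 (0.206), Slc37a2 (0.238), Pglyrp1 (0.251), Slamf8 (0.253), F10 (0.262), Gm49339 (0.269), Tgm2 (0.272), Lilra6 (0.291) and Actr3 (0.294). The median over 13446 genes scored was 1.32, and the 7 genes themselves lay from 0.190 (S100a9) to 0.506 (Trem1). Lpcat2, an enzyme of platelet-activating factor synthesis, averaged 10.9 CPM at ZT4 and 3.78 CPM at ZT16, while Srsf5, a splicing factor, averaged 608 and 523, since the measure reads the shape of a profile and not its size. Over all 22 libraries the closest genes were Hcar2 (0.213), Clec4d (0.250), Ctsd (0.252), Fpr1 (0.254), Bst1 (0.254), Acod1 (0.260), Lilra6 (0.261), Dab2 (0.261), Dmkn (0.269) and Ccl24 (0.269), with a median of 1.42 over 14032 genes. Hcar2, Clec4d, Fpr1, Acod1 and Pglyrp1 are on the neutrophil lists above, many of whose genes are made by monocytes and macrophages too. The other closest genes, among them Ctsd, a lysosomal protease, are not on any list read here. The cells from which the reads of the closest genes came were not tested. These likenesses are a description over libraries that share groups and scaling.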

How the data were processed

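RNA was measured by SMART-seq v4 in 22 libraries of sorted ZsGreen-positive cells, per the labels' protocols. Per the file headers, the authors deposited RSEM output with an expected count, TPM and the percent of a gene's output for each of 103732 transcripts. The genome build mm10 and the tools RSEM 1.3.3, STAR 2.5.2, Trimmomatic 0.33 and DESeq2 are named in the submitters' processing notes. The roles of the tools and the annotation are not given in the sources used here. Expected counts were summed per gene (43430) and rounded, and symbols came from GENCODE M21. The deposited TPM served to compare levels between genes, and the deposited percent per transcript was read but not tested.

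All 22 libraries entered 1 fit of edgeR 4.0.16 (R 4.3.3) with TMM (factors 0.942 to 1.094), robust quasi-likelihood and a mean per group. The filter on low counts (minimum 10, total 15) kept 15084 genes. P-values were adjusted by Benjamini-Hochberg, with 0.05 as threshold. Errors are SE implied by the F test. DESeq2 1.42.0 and limma 3.58.1 were alternatives, with other scalings, filters, fewer libraries and a replicate block. The procedure was also run on simulated data, whose outcome is not given here, so nothing is read from that run. Intervals (95%, exact) and the floor of 3 counts cover counting error only, since reads without molecular identifiers are not independent molecules. Log2 CPM used a prior count of 2.

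The 8 genes and the 15 other lists (150 genes, all matched) were chosen with earlier results of these data known. All 8 genes are named, up to 4 of each list by the smallest p at day 1, any partner gene, and the 10 genes closest in profile among those with at least 1 CPM. Pax7 and Myod1 are named as markers of the sort. Other genes of the lists lie outside this rule and were named for their values. These are genes at or near 0 counts, genes that carry a list's sum, and genes that passed the filter through 1 group. Endothelial, fibro-adipogenic, mural and lymphocyte lists had day 1 medians of 0.138, −0.237, 0.107 and 1.387 (1 lymphocyte gene tested).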

Additional observations from a re-analysis of the deposited data

Results flagged for a closer look

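In groups of 4 libraries, 30 sets of values of the 8 genes were examined for a library far from the other 3 by Dixon's ratio, and 4 stood out. Chance flags about 1 in 20 groups of continuous values, a rate that does not apply to 3 of the 4, where a single library had counts and the ratio is 1 by construction. Lcn2 was at 8.71 CPM in day 1 ZT4 replicate 3, against 2.59 to 3.58 in the other ZT4 libraries. Lcn2 was at 0.719 CPM in day 3 ZT16 replicate 1, from 7 counts, with none in the other ZT16 libraries. The other flags were 1 count each: Lcn2 at 0.139 CPM in day 3 ZT4 replicate 2 and S100a9 at 0.103 CPM in day 3 ZT16 replicate 1.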

How the results depend on the processing

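Across 112 recomputed values of the 7 tested genes at day 1, ZT16 against ZT4, all 112 were below 0, from −2.84 to −0.79. Those of Lcn2 come from a gene that passed the filter on low counts through its ZT4 libraries. The number of the genes past the threshold was 0 in edgeR, 1 in DESeq2, 3 in limma voom, 6 with no filter on low counts and 1 with only the libraries of the groups compared. It was 0 with DESeq2 size factors in edgeR, with library totals, with a mean of at least 1 CPM, and without each of the 8 libraries in turn. With all groups fitted and a filter, edgeR gave adjusted p from 0.129 to 1. For all genes the counts were 0 in edgeR, 27 in DESeq2, 47 in limma voom, 270 with no filter and 2 with the groups compared alone, and 0 to 10 without 1 library. At day 3 they were 0, 4, 0, 127 and 1, and for the difference of the time effects 0, 4, 0, 77 and 0 (0 to 1 without 1 library). In uninjured muscle they were 2663, and 577 with the groups compared alone (1768 to 2898 without 1 library). With no filter 1 of the 8 genes passed there, S100a8. Over the alternatives other than leaving out 1 library, 577 to 3095 of all genes passed there. The cause of these shifts was not tested. Ranges that did not overlap at day 1 were seen for 3 genes under each scaling of CPM, beside 2.25% of all genes tested in the main one. In TPM they were seen for 4, with S100a8 added on 189 TPM (ZT4 replicate 4) against 181 (ZT16 replicate 2). The share of all genes was not computed in TPM, so nothing is read from that count. At day 3, leaving out 1 library at a time moved Trem1 between −2.39 and 0.46 (without ZT16 replicate 4 and ZT4 replicate 1), S100a8 between −1.47 and 0.016 (without ZT16 replicate 2 and ZT4 replicate 3) and Csf3r between −0.88 and 0.003 (without ZT16 replicates 1 and 3), with no call. S100a9, at −2.45, ran from −3.95 (without ZT16 replicate 1) to −2.05, Cxcr2, at −1.31, from −1.63 to −0.70 (without ZT4 replicate 1), and Lcn2, at 2.09, from 1.77 to 3.71 (without ZT4 replicate 2), with 0.24 in limma voom. For the difference of the time effects Lcn2 ran from −6.20 (without day 3 ZT4 replicate 2) to −0.88 (without day 3 ZT16 replicate 1). Values with at most 3 counts in each group were not computed. For day 1 against uninjured and for day 3 against day 1, 7 genes passed in edgeR, and 7 or 8 under each alternative. Of all 15084 genes tested, 11347 and 8350 passed in edgeR in either direction. The 7 genes passed the filter through their day 1 libraries, so nothing is read from this stability.

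With the replicate number as a block 0 of the 7 genes passed at day 1, with Trem1 at −2.58 ± 0.49 (edgeR, adjusted p = 0.319). The samples share only a number: deviations of same-numbered libraries correlated at 0.042 to 0.132 at day 1, −0.126 to −0.032 at day 3 and −0.094 to 0.139 in uninjured muscle, and 4 of 8, 0 of 8 and 3 of 6 libraries correlated best with their own number. The block moved no count of the 8 genes past the threshold. The fold of day 1 over uninjured without uninjured ZT4 replicate 2 was added after the data were seen. Few counts limit the comparison of times at day 3, where the SE of the log2 differences ran from 0.50 to 1.48, against 0.39 to 0.79 at day 1, and in uninjured muscle.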
